A study of Homo sapiens with 4 samples.

Results

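The carnitine shuttle genes around CPT2 are 8 rows of a table of 59050 genes, picked by gene symbol: CPT2, CPT1A, CPT1B, CPT1C, SLC25A20, CRAT, CROT and SLC22A5. Their transcripts were counted by RNA-seq in HUES8, an established line of human embryonic stem cells, grown in mTeSR1 medium on plates coated with Matrigel. By genotype, 2 of the 4 libraries are WT and 2 are CPT2 KO, while the treatment entry of all 4 reads WT. The labels give no allele, guide, edited exon, clone number or age of culture for CPT2 KO, and nothing says that replicates came from separate cultures; a p-value here reflects library-to-library spread alone, which may be technical. By its title the study asks how fatty acid synthesis and oxidation bear on SMAD3 acetylation and definitive endoderm, and the comparison here asks how the shuttle transcripts differ with the CPT2 label.

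Long-chain fatty acids enter the mitochondrial matrix as carnitine esters. A CPT1 enzyme on the outer membrane passes the acyl group from coenzyme A to carnitine, the carrier encoded by SLC25A20 exchanges acylcarnitine for free carnitine across the inner membrane, and CPT2 on the matrix side gives the acyl group back to coenzyme A for oxidation. CPT1A is the form found in liver and most other tissues, CPT1B the form of muscle and heart, and CPT1C a form known from neurons that sits in the endoplasmic reticulum and has little transferase activity. CRAT handles acetyl and other short acyl groups, CROT handles medium-length groups made in peroxisomes, and SLC22A5 brings carnitine into the cell.

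Library totals ranged from 16887789 to 20460031 counts. After TMM library scaling, 1 count was worth 0.0485 to 0.0603 CPM, the count scaled to a common library total. Replicate 1 labelled WT stood apart: the chi-square per degree of freedom of its counts was 39.6 against replicate 2 labelled WT and 45.8 and 53.3 against the CPT2 KO-labelled libraries, where the other pairs lay at 10.5 to 12.6. Where a member's value rests on this library, the value without it is given. Stem cell markers were present in every library, with POU5F1 at 1884 to 2300 CPM, SOX2 at 236 to 265 CPM and NANOG at 252 to 357 CPM. Markers of mesendoderm and endoderm, 11 genes together, summed to 16.2 and 11.6 CPM in replicates 1 and 2 labelled WT and to 276 and 57.1 CPM in the CPT2 KO-labelled pair, with SOX17 and GATA6 at 0 counts in both libraries labelled WT. Of these markers 9 were tested and 0 called, where edgeR called 0.416% of all tested genes, so that a count of 0 is near that share. All 9 log2 fold changes were positive, with a median of 4.10. At an unadjusted edgeR p under 0.05 there were 6 of 9, beside 9.04% of all tested genes. Of other markers, edgeR called the stem cell gene ZFP42 higher (log2 fold change 0.98, adjusted p = 0.0164) and the neural genes SOX1 and SIX6 lower (-3.30 and -4.72, adjusted p = 0.0164 and 0.0382). The neural markers did not move together. Of 6 tested, 4 had a negative log2 fold change and 2 a positive one, NES (0.36) and PAX6 (1.01), neither of them called. The part of these markers in the results on CPT2 was not tested, and in bulk RNA a change in the number of cells of a type and a change in RNA per cell cannot be told apart.

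CPT2 was the member called different between the groups, and its transcript was higher in the libraries labelled CPT2 KO. CPT2 (ENSG00000157184.6) lies at chr1:53196429-53214197 on the plus strand of GRCh38 and is the targeted gene of the study. It had 52 and 72 counts in replicates 1 and 2 labelled WT and 233 and 170 counts in the CPT2 KO-labelled pair. Both libraries labelled CPT2 KO lay above both labelled WT, at 11.5 and 10.2 CPM against 2.82 and 3.49 CPM. The fold change was 3.44 with a 95% interval of 2.26 to 5.23 (log2 fold change 1.78, SE 0.27, edgeR adjusted p = 0.0218, higher in 2 of 2 libraries). This call was lost without replicate 1 labelled CPT2 KO (log2 fold change 1.69, edgeR adjusted p = 0.168), without replicate 2 of that group (1.87, 0.0511) and with limma-voom (1.78, adjusted p = 0.0634), while without replicate 1 labelled WT it was 1.64 (edgeR adjusted p = 0.00378). Each fit without a library leaves 1 library in a group, which is assumed to vary like the pair in the other group. A smaller p in such a fit is no support for the call. The limma-voom fit used all 4 libraries. Whether labels are exchanged, the edited gene still gives a transcript or another cause applies was not tested and cannot be told apart here. The libraries are therefore named by their labels throughout, and every direction given follows those labels.

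The counts do not show which CPT2 transcripts carry the reads. GENCODE 29 lists 12 transcripts of CPT2, 3 of them with a retained intron, and the table counts all exon positions of the gene as 1 row. Exon positions of CPT2 overlap those of the antisense gene AL606760.2 over 1151 bases and of CZIB, on the opposite strand at the end of CPT2, over 99 bases. AL606760.2 had 2, 0, 0 and 0 counts in the order WT 1, WT 2, CPT2 KO 1 and CPT2 KO 2. CZIB had 452, 515, 499 and 345 counts in the same order (log2 fold change -0.12, edgeR adjusted p = 0.863). Neither overlapping gene lay higher in both CPT2 KO-labelled libraries.

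Of the 8 members, 1 was called higher and 0 lower, where edgeR called 0.416% of the 17564 tested genes in either direction, 63 of them higher (0.359%) and 10 lower (0.0569%). Under other settings the share of all tested genes called was 0.41% with DESeq2 size factors, 0.396% with no filter on low counts, 0.435% with a stricter one and 0.433% with the legacy estimate of edgeR. It stayed at 0.416% with upper quartile scaling and with library size only. It was 1.11% with DESeq2, 0.171% with limma-voom, 0.165% at a threshold of 0.01 and 2.12% with the replicate number as a block. Leaving out 1 library gave 0.848% and 6.86% (WT replicates 1 and 2) and 0.188% and 0.473% (CPT2 KO replicates 1 and 2). CPT2 was called under 10 of these 14 alternatives and CPT1A under 1. All 8 passed the filter on low counts. Log2 fold changes were positive for 4 members and negative for 4, and their median was -0.057 beside a median of 0.0017 over all tested genes. Between CPT2 and the 7 other members lay a gap: the 7 ran from -0.41 for CPT1B to 0.19 for CPT1A. The 2 groups did not overlap in CPM for 3 members, CPT2 above and CPT1C and CRAT below in the CPT2 KO-labelled libraries, while 40.9% of tested genes had groups that did not overlap.

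**Figure D1:**
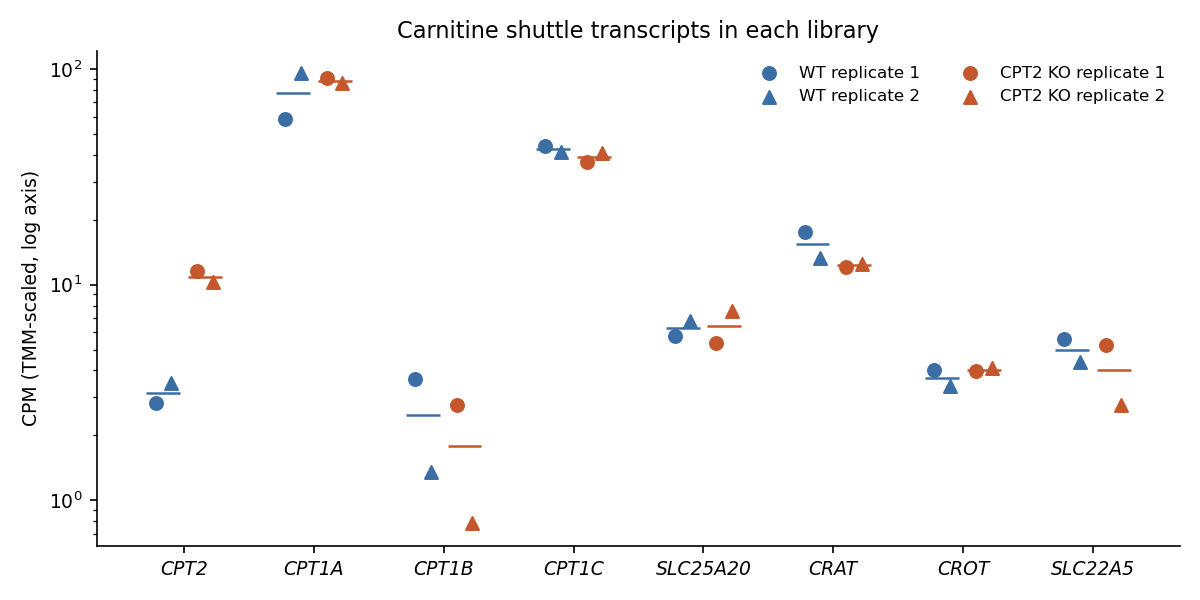
CPM of each member (log axis) in the 4 libraries; points are libraries, circles replicate 1 and triangles replicate 2, and short lines are group means. CPT2 separates the groups, at 2.82 and 3.49 against 11.5 and 10.2 CPM, and CPT1A is lowest in replicate 1 labelled WT.

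**Figure D2:**
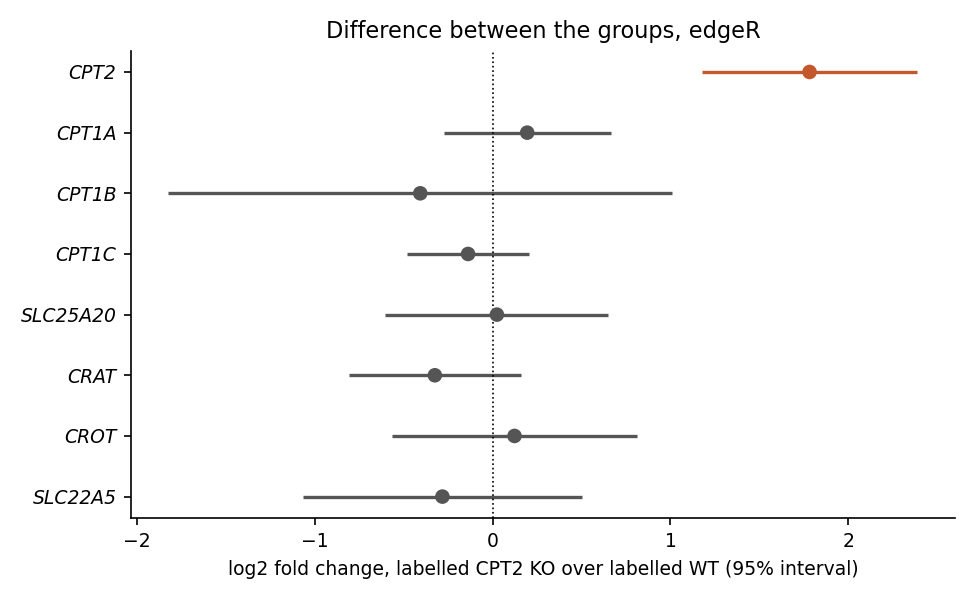
Log2 fold change of each member, CPT2 KO-labelled over WT-labelled libraries, with the 95% interval from edgeR (n = 2 libraries each). The interval of CPT2 runs from 1.18 to 2.39, and those of the other 7 members include 0.

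CPT1A was the most abundant member per length with the deposited lengths, and it was not called different. CPT1A (ENSG00000110090.12, chr11:68754620-68844410, minus strand) had 1082 and 1967 counts in the WT-labelled libraries and 1826 and 1429 in the CPT2 KO-labelled pair, or 58.6, 95.5, 90.4 and 86.1 CPM. Replicate 1 labelled WT was the low one, and the other 3 libraries lay close together. The fold change was 1.14 with an interval of 0.826 to 1.58 (edgeR adjusted p = 0.798). Without replicate 2 labelled WT, which leaves replicate 1 alone in its group, CPT1A was called higher (log2 fold change 0.59, edgeR adjusted p = 0.0298) with the spread taken from the other group alone and 6.86% of all tested genes called, and without replicate 1 the sign turned (-0.11).

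CPT1C was the next most abundant member with those lengths and was not called either. CPT1C (ENSG00000169169.14, chr19:49690898-49713731, plus strand) had 813 and 853 counts in the WT-labelled libraries and 747 and 676 in the CPT2 KO-labelled pair, or 44.1, 41.4, 37.0 and 40.7 CPM. The groups did not overlap, though replicate 2 labelled CPT2 KO came within 1 CPM of replicate 2 labelled WT. The fold change was 0.909 with an interval of 0.717 to 1.15 (edgeR adjusted p = 0.809), the narrowest of the 8 intervals on the log2 scale. The log2 fold change of -0.14 became -0.093 without replicate 1 labelled WT.

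CPT1B was scarce, and its replicates differed more than its groups. CPT1B (ENSG00000205560.12, chr22:50568861-50578465, minus strand) had 67 and 28 counts in the WT-labelled libraries and 56 and 13 in the CPT2 KO-labelled pair. Replicate 1 was the higher one in both groups, and the groups overlapped. Its fold change came to 0.754 with an interval of 0.283 to 2.01 (edgeR adjusted p = 0.869), which leaves room for large differences in either direction. The log2 fold change of -0.41 turned to 0.45 without replicate 1 labelled WT and to 0.17 without replicate 2 labelled CPT2 KO. Of its exon positions, 2722 bases or 66.4% are shared with the readthrough gene CHKB-CPT1B on the same strand, which joins the choline kinase gene CHKB to CPT1B, and the assignment of reads between them is uncertain. CHKB-CPT1B had 27, 17, 21 and 17 counts and CHKB 45, 21, 30 and 3 counts, in the order WT 1, WT 2, CPT2 KO 1 and CPT2 KO 2.

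The CPT1 coding sequences share little exact sequence, which bears on whether reads can be told apart among the 3 forms. The longest run common to all 3 has 20 bases, and CPT1A and CPT1B share a run of 25 bases that contains it. None of the windows of 50 bases in the coding sequence of one is found in another (0 shared windows for each pair of the 3, and 0 for each with CPT2, CRAT and CROT). The stretch that holds the longest run common to the 3 genes is shown. Each line gives 60 bases of GENCODE 29 coding sequence, 5′ to 3′, with the common run in capitals.
CPT1A: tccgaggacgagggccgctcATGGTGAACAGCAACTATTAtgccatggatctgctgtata
CPT1B: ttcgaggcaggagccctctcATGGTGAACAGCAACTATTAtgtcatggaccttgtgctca
CPT1C: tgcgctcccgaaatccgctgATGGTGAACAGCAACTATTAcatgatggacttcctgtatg
Over these 60 bases, 46 bases of CPT1B and 43 of CPT1C equal those of CPT1A at the same place. The window spans the junction of coding exons in all 3 genes, exons 7 and 8 of CPT1A at chr11:68794899-68796902 and of CPT1B at chr22:50574588-50576081, and exons 8 and 9 of CPT1C at chr19:49704741-49705019, each numbered along its transcript.

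CPT1A and CPT1C made up nearly all of the CPT1 transcripts per length, and which of them came first depended on the length used. Divided by the deposited gene length, its share of the summed level of the 3 forms was 51.5% and 66.3% in the WT-labelled libraries and 66.3% and 64.7% in the CPT2 KO-labelled pair. Replicate 1 labelled WT was the low one. CPT1C took 43.4%, 32.2%, 30.4% and 34.3%, and CPT1B 5.11%, 1.51%, 3.26% and 0.943%, in the order WT 1, WT 2, CPT2 KO 1 and CPT2 KO 2. The share of CPT1A was 6.64 percentage points higher in the CPT2 KO-labelled libraries (58.9% ± 10.4 against 65.5% ± 1.13, SD, n = 2 each; exact two-sided permutation p = 0.667, where the smallest p that 2 against 2 allows is 0.333). Without replicate 1 labelled WT that difference was -0.744 points and without replicate 2 it was 14.02 points, so the difference rests on replicate 1. With the longest protein-coding transcript as the length, the share of CPT1A was 40.4% and 55.3% in the WT-labelled libraries and 55.7% and 53.5% in the CPT2 KO-labelled pair, and that of CPT1C was 54.6%, 43.1%, 41.0% and 45.5% in the order WT 1, WT 2, CPT2 KO 1 and CPT2 KO 2. With the longest annotated transcript the shares in WT 1 were 40.7% for CPT1A and 54.3% for CPT1C. CPT1C thus stood above CPT1A in WT 1 under both of these lengths, and in the mean of the WT-labelled libraries (48.5% against 48.2% with the longest annotated transcript, 48.9% against 47.9% with the longest protein-coding one).

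SLC25A20, the inner membrane carrier that works between the CPT1 enzymes and CPT2, was not called. SLC25A20 (ENSG00000178537.9, chr3:48856931-48898993, minus strand) had 107 and 139 counts in the WT-labelled libraries and 108 and 125 in the CPT2 KO-labelled pair, or 5.80, 6.75, 5.35 and 7.53 CPM. The 2 groups overlapped, with both extremes among the CPT2 KO-labelled libraries. Its fold change came to 1.02 with an interval of 0.658 to 1.57 (edgeR adjusted p = 0.987), and the log2 fold change of 0.024 turned to -0.082 without replicate 1 labelled WT and to -0.23 without replicate 2 labelled CPT2 KO.

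CRAT and CROT, the transferases for shorter acyl groups, were not called. CRAT (ENSG00000095321.16, chr9:129094810-129111189, minus strand) had 323 and 275 counts in the WT-labelled libraries and 245 and 207 in the CPT2 KO-labelled pair, or 17.5, 13.3, 12.1 and 12.5 CPM. Replicate 1 labelled WT was the highest, and the others lay close together. Its fold change came to 0.798 with an interval of 0.572 to 1.12 (edgeR adjusted p = 0.676). The log2 fold change of -0.32 became -0.12 without replicate 1 labelled WT and -0.51 without replicate 2 of that group. CRAT shares 75 exon bases with PTPA, a more abundant gene on the opposite strand, which had 3625, 3810, 3382 and 2712 counts in the order WT 1, WT 2, CPT2 KO 1 and CPT2 KO 2, and 34 bases with AL158151.2. CROT (ENSG00000005469.11, chr7:87345681-87399795, plus strand) had 74, 70, 80 and 68 counts in that order, and its groups overlapped at 3.40 to 4.10 CPM. Its fold change was 1.09 with an interval of 0.677 to 1.75 (edgeR adjusted p = 0.930). The log2 fold change of 0.12 became 0.24 without replicate 1 labelled WT.

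SLC22A5, the carnitine importer of the plasma membrane, had its lowest level in 1 library labelled CPT2 KO. SLC22A5 (ENSG00000197375.12, chr5:132369752-132395614, plus strand) had 103 and 90 counts in the WT-labelled libraries and 106 and 46 in the CPT2 KO-labelled pair, or 5.58, 4.37, 5.25 and 2.77 CPM. Replicate 2 labelled CPT2 KO stood below the other 3, and the groups overlapped. Its fold change came to 0.822 with an interval of 0.477 to 1.42 (edgeR adjusted p = 0.830). The log2 fold change of -0.28 turned to 0.082 without that replicate and became -0.093 without replicate 1 labelled WT. Its exons overlap those of MIR3936HG on the opposite strand over 73 bases, a gene with 18, 9, 9 and 10 counts in the order WT 1, WT 2, CPT2 KO 1 and CPT2 KO 2.

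Levels were compared between genes only per length, as TPM, that is counts over gene length, scaled to the same total in each library. With the deposited lengths CPT1A stood at 43.2 ± 11.2 TPM in the group labelled WT and 45.0 ± 2.76 TPM in the group labelled CPT2 KO (SD, n = 2 each), between the percentiles 84.6 and 90.3 of the 31279 genes with a count. CPT1C followed at 27.3 ± 3.46 and 22.2 ± 0.918 TPM. CRAT at 15.2 ± 4.14 and 10.8 ± 0.0775 TPM and SLC25A20 at 12.3 ± 0.291 and 11.3 ± 2.42 TPM came next, and their libraries overlapped in both groups. With these lengths the 4 most abundant members thus cover the outer membrane step, the carrier and the acetyl transferase, and CPT2 was not among them. In the group labelled CPT2 KO the place of CPT2 changed with the length, as given below.

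By group mean CPT2 was the last of the 8 members in the group labelled WT, at 1.16 ± 0.0797 TPM, and the fifth in the group labelled CPT2 KO, at 3.62 ± 0.401 TPM (SD, n = 2 each). CPT2 took place 8 in WT 1 and place 6 in WT 2, there above SLC22A5 and CPT1B. In the group labelled WT CPT2 overlapped SLC22A5 (1.46 ± 0.372 TPM) and CPT1B (2.33 ± 1.65 TPM). SLC22A5 overlapped CPT1B, which in turn overlapped CROT (2.79 ± 0.556 TPM). In the group labelled CPT2 KO both libraries of CPT2 lay above those of CROT (2.71 ± 0.00786 TPM) and below those of CRAT. CPT1B and SLC22A5 were then the last, at 1.47 ± 1.19 and 1.06 ± 0.487 TPM, and overlapped.

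These places depend on the length used. The deposited length of CPT2 is 10089 bases, 3.26 times its longest protein-coding transcript of 3094 bases, and that of SLC22A5 is 12788 bases against 3237, a ratio of 3.95. The ratio was 2.02 for CPT1C, 1.26 for CPT1A and 1.01 for SLC25A20. The longest protein-coding transcript as the length was a choice made after seeing the data. With it CPT2 stood at 2.65 ± 0.263 TPM in the group labelled WT, where it took place 7 by mean. In the group labelled CPT2 KO it stood at 8.46 ± 0.988 TPM, took place 4 and overlapped SLC25A20 at 8.19 ± 1.70 TPM. CPT1C (38.4 ± 3.71 TPM) and CPT1A (38.1 ± 10.97 TPM) then overlapped in the group labelled WT. Length did not enter the fold changes between groups.

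**Figure D3:**
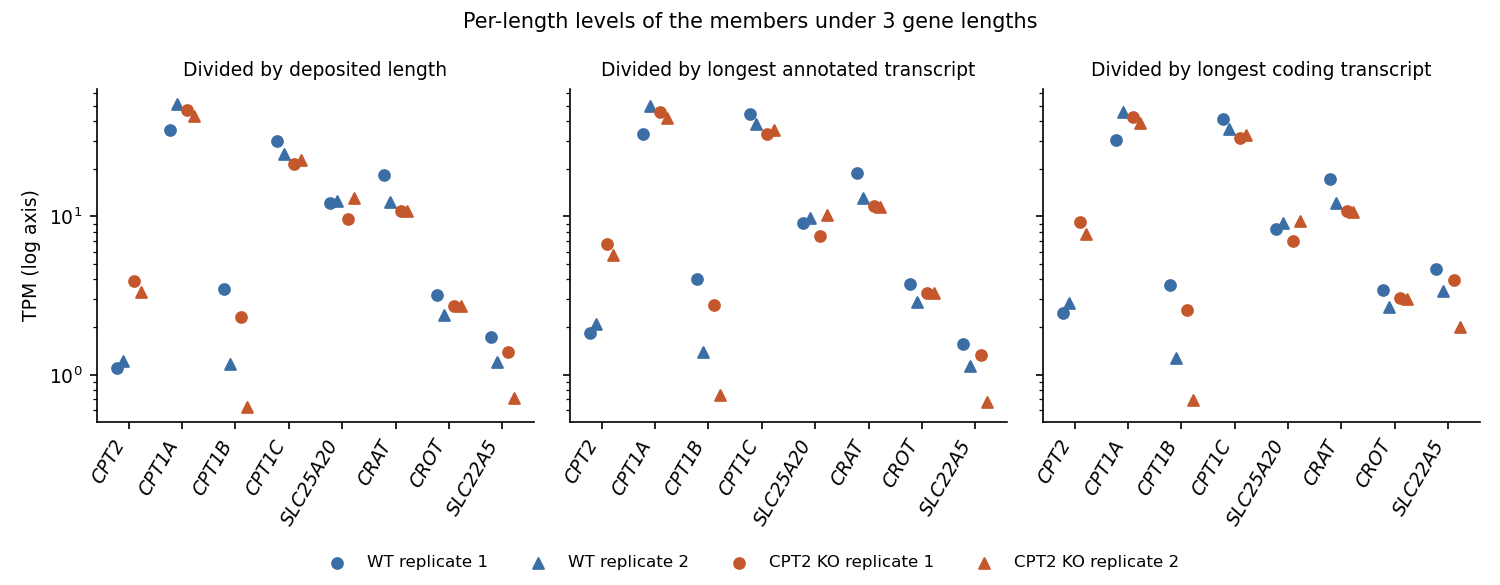
TPM (log axis) of each member in the 4 libraries under 3 gene lengths, the deposited length, the longest annotated transcript and the longest protein-coding transcript; circles are replicate 1 and triangles replicate 2. CPT1A and CPT1C are on top in each panel, and CPT2 moves up against SLC25A20 as shorter lengths are used.

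Set against its partners within each library, CPT2 was closer to them in the CPT2 KO-labelled libraries. The per-length level of CPT1A was 31.9 and 41.9 times that of CPT2 in the WT-labelled libraries and 12.03 and 12.9 times in the CPT2 KO-labelled pair. For SLC25A20 the values were 10.9 and 10.3 times in the WT-labelled libraries against 2.46 and 3.91 times. The groups did not overlap for either ratio. These multiples depend on the length: with the longest protein-coding transcript CPT1A stood at 12.3 and 16.2 times CPT2 in the WT-labelled libraries and at 4.63 and 4.97 times in the CPT2 KO-labelled pair. For SLC25A20 they were then 3.39 and 3.18 against 0.763 and 1.21 times, so that CPT2 lay above SLC25A20 in CPT2 KO 1. The fold differences between the groups are the same under each length. The ratio of CPT2 to CPT1A was 2.94-fold higher and that of CPT2 to SLC25A20 3.41-fold higher in the CPT2 KO-labelled libraries (exact two-sided permutation p = 0.333 for each, the smallest that 2 libraries against 2 allow; both ratios share CPT2). Such a ratio does not depend on how libraries are scaled.

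None of the 74 tested genes in 8 lists of the surrounding pathway was called by edgeR, and the median of their log2 fold changes was -0.017. With 0.416% of all tested genes called, a count of 0 is near that share. At an unadjusted edgeR p under 0.05 there were 10 of 74, where 9.04% of all tested genes were under that value. Of these 10, 6 belonged to the list of fatty acid uptake and activation. DESeq2 also called 0 of the 74. Without replicate 2 labelled WT, 6 were called: DBI higher, and ACSL4, ACBD5, ACACA, PRKAA2 and FOXO3 lower. With that library left out, 6.86% of all tested genes were called. That fit leaves replicate 1 alone in the group labelled WT. Without replicate 1 instead, log2 fold changes were 0.29 for DBI, -0.13 for ACSL4, -0.12 for ACBD5 and -0.19 for ACACA. They were -0.21 for PRKAA2 and 0.66 for FOXO3, whose sign thus turned. These 6 genes include some outside the rule for naming genes and were named after their values were seen.

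Carnitine synthesis and transport beyond SLC22A5 showed no called gene. Of 4 tested synthesis genes all 4 had a negative log2 fold change (median -0.039), as had 8730 of all 17564 tested genes. TMLHE, the first enzyme of the route, had -0.39 (edgeR adjusted p = 0.669). ALDH9A1, an aldehyde dehydrogenase of a later step, had -0.019, which turned to 0.026 without replicate 1 labelled WT. BBOX1, the last enzyme, had 2, 0, 3 and 0 counts in the order WT 1, WT 2, CPT2 KO 1 and CPT2 KO 2 and was not tested. Of the other carriers, SLC16A9 had a log2 fold change of -0.24, SLC22A4 had 3, 3, 5 and 7 counts and was not tested, and SLC22A16 had 0 counts in all 4 libraries. CHAT, the choline acetyltransferase of the same enzyme fold, had 1 count in all.

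Genes of fatty acid uptake and activation ahead of the shuttle were not called. At an unadjusted edgeR p under 0.05 there were 6 of 16, with log2 fold changes of both signs, beside 9.04% of all tested genes. The groups did not overlap in CPM for 11 of the 17 listed genes, beside 40.9% of all tested genes. Among 16 tested genes of uptake and activation (median 0.078, 10 positive and 6 negative), the acyl-CoA synthetases ACSL3, ACSL4 and ACSL1 had log2 fold changes of -0.10, -0.32 and -0.16. ACSL4 was among the genes called lower without replicate 2 labelled WT. CD36, a fatty acid translocase named after its values were seen, had the largest log2 fold change of the list (2.54, edgeR adjusted p = 0.347) from 4 and 2 counts against 14 and 20.

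Regulators of the CPT1 step were not called either. CPT1A and CPT1B are inhibited by malonyl-CoA, which the carboxylases ACACA and ACACB make and MLYCD removes. ACACA stood at 399, 313, 286 and 262 CPM in the order WT 1, WT 2, CPT2 KO 1 and CPT2 KO 2 (log2 fold change -0.38, edgeR adjusted p = 0.493). The groups did not overlap, as for 40.9% of all tested genes. Replicate 1 labelled WT was the highest, and without it the log2 fold change was -0.19. ACACB had a log2 fold change of -0.43 and MLYCD of 0.28 (edgeR adjusted p = 0.570 and 0.718). The list of 10 had a median of -0.064. In its kinase part, PRKAA2, a catalytic subunit of AMP-activated kinase named after its values were seen, had -0.68 (edgeR adjusted p = 0.547), with replicate 1 the higher one in both groups.

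The enzymes that take over the acyl group after CPT2 held no called gene. Among 15 tested genes of the mitochondrial spiral (median 0.024), ACADVL, the dehydrogenase of very long chains, had a log2 fold change of 0.096, and HADHA and HADHB, the 2 chains of the trifunctional protein, had -0.22 and -0.15. Peroxisomal chain shortening, which feeds CROT, gave a median of 0.056 over 14 tested genes, with -0.024 for HSD17B4 and 0.20 for the thiolase ACAA1. The 13 tested transcription factors and cofactors of oxidation genes had a median of -0.16. PPARA, a receptor known to drive CPT1A and CPT2, had -0.51 (edgeR adjusted p = 0.530). Its groups did not overlap, as for 5 of the 15 genes of that list and 40.9% of all tested genes. PPARD had -0.19, and PPARG had 6, 2, 6 and 9 counts in the order WT 1, WT 2, CPT2 KO 1 and CPT2 KO 2 and was not tested.

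**Figure D4:**
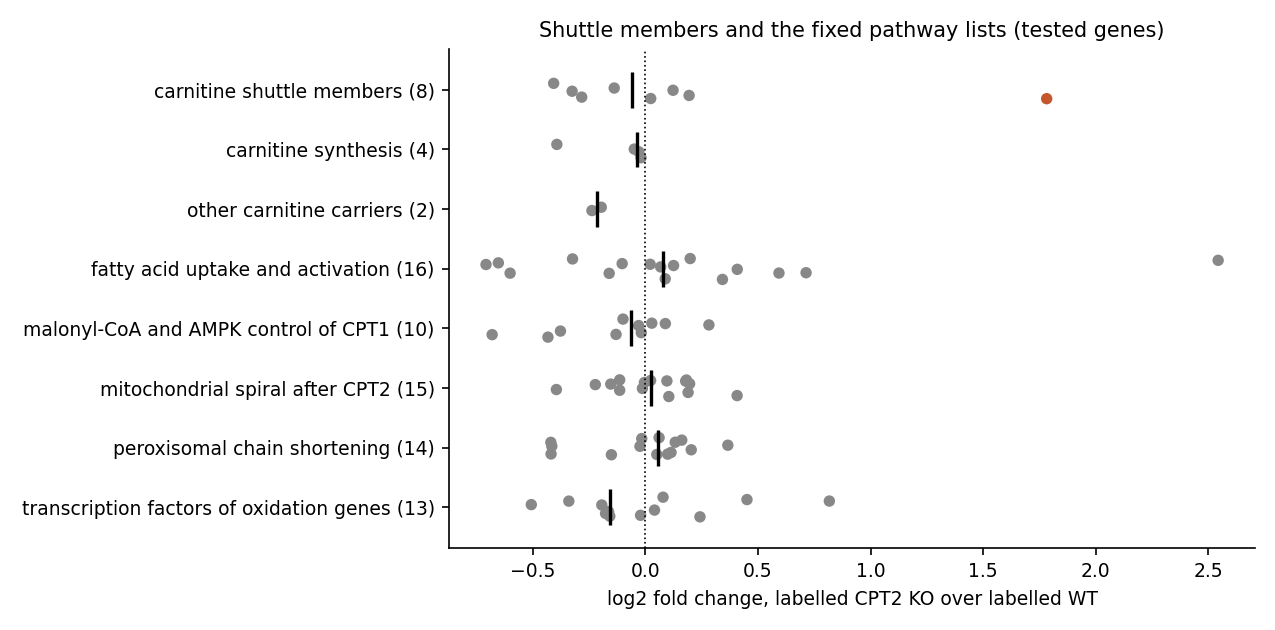
Log2 fold change of each tested gene, CPT2 KO-labelled over WT-labelled libraries, in the shuttle and in 7 pathway lists (number tested in brackets); black bars are list medians. CPT2, at 1.78, is the called gene, and the point at 2.54 is CD36, which was not called.

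The genes around CPT2 on chromosome 1 held no called gene. Of 38 genes in the table whose start lies within 500 kb of that of CPT2, 10 were tested and 0 were called by edgeR, where 0.416% of all tested genes were called, so that a count of 0 is near that share. Their log2 fold changes ran from -0.21 for LINC01771 to 0.68 for ZYG11A (edgeR adjusted p = 0.508, and 0.0324 before adjustment), whose start lies at -353.9 kb. The closest tested genes were CZIB at 24.2 kb and MAGOH, a gene of the exon junction complex, at 42.2 kb. MAGOH had a log2 fold change of 0.39 with an interval of -0.28 to 1.07, from 28.6 and 46.7 CPM labelled WT to 38.8 and 60.4 CPM labelled CPT2 KO. SCP2, a sterol carrier with a thiolase form that works in peroxisomal oxidation, has its start at -269.2 kb and had a log2 fold change of -0.016. The groups did not overlap for 3 of the 10, beside 40.9% of all tested genes.

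**Figure D5:**
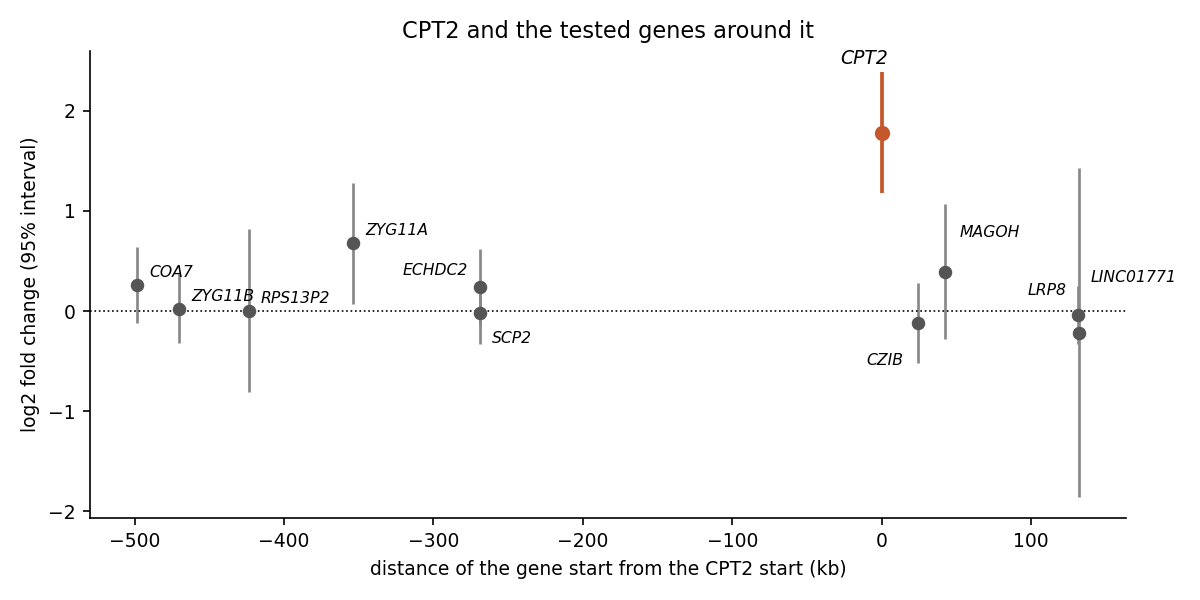
Log2 fold change with its 95% interval, CPT2 KO-labelled over WT-labelled libraries (n = 2 each), for CPT2 and the 10 tested genes whose start lies within 500 kb, by distance of their start from that of CPT2 in kb. CPT2 lies at 1.78 and the neighbours between -0.21 and 0.68.

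The genes whose profile over the 4 libraries was most like that of CPT2 were AF228730.5, PLBD1, HHLA1, AC100868.1 and RGS16. Likeness was the Euclidean distance between log2 CPM profiles, each centred on its own mean, over 4 libraries and among genes with a mean of at least 5 CPM. The distances were 0.14, 0.16, 0.20, 0.23 and 0.29. PLBD1, a phospholipase B-like gene, stood at 15.5 and 20.7 CPM in the WT-labelled libraries and at 68.0 and 52.8 CPM in the CPT2 KO-labelled pair. RGS16, a regulator of G protein signalling, stood at 4.44 and 4.32 against 16.8 and 16.5 CPM. These genes were picked for that pattern, so their levels are a description. With 4 libraries in 2 groups such a profile is mainly the step between the groups.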

How the data were processed

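Read counts from RNA-seq of 4 HUES8 libraries were used. HISAT2 2.1.0, featureCounts 1.6.4 and the build hg38 (GRCh38) are named in the submitters' processing notes. The table deposited by the authors holds raw counts per gene symbol and a gene length in bases, per the file headers. For strand setting, annotation release and multiply aligned reads the entry is: not given in the sources used here. CPM were computed from the counts with TMM library scaling, and TPM with the deposited lengths. After filterByExpr by group, 17564 genes entered edgeR 4.0.16 (R 4.3.3; glmQLFit with robust estimation, glmQLFTest, no covariate), with p-values adjusted by Benjamini-Hochberg across them at 0.05. SE is the log2 fold change over the square root of F, and 95% intervals use the total degrees of freedom. The fit was tested on simulated data with the same spread in all 4 libraries. That test therefore does not cover a library that stands apart. Alternatives included DESeq2 1.42.0, limma-voom (limma 3.58.1), other scalings and filters, the replicate number as a block and leaving out each library. GENCODE 29 (GRCh38) gave positions, transcript lengths and coding sequences, with a gene for 56608 of 59050 symbols. The deposited lengths of 4 of the 8 members equal its exon unions. The genes named are the 8 members, the first 3 of each pathway list, any called list gene, genes overlapping a member's exons and the 5 genes most like CPT2; others are said to be named after their values were seen. One item that this rule would name is not reported here. Members and lists were chosen with earlier results of these data known. Libraries were compared in pairs over genes with a summed count of at least 10.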

Additional observations from a re-analysis of the deposited data

How the results depend on the processing

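The direction of the CPT2 difference was kept in all 14 alternatives, with log2 fold changes of 1.64 to 1.95, and the call was kept in 10. The threshold of 0.01 uses the main fit, so the direction could not change there. Other scalings, filters and tests use the same 4 libraries. It was lost with limma-voom (1.78, adjusted p = 0.0634), at a threshold of 0.01 (1.78, edgeR adjusted p = 0.0218) and without either library labelled CPT2 KO, where leaving out 1 library at a time gave 1.64 to 1.95. The number of members called was 0 with limma-voom and at 0.01, and 0 to 2 with each library left out. The number of pathway genes called was 0, apart from 1 with the replicate number as a block (PRKAA2, log2 fold change -0.66, edgeR adjusted p = 0.0495) and 0 to 6 with each library left out. Replicate numbers are shared by the groups but nothing says that they pair the libraries; within-group differences between replicates 1 and 2 correlated at 0.25 across genes. With the replicate block the CPT2 log2 fold change was 1.78 (edgeR adjusted p = 0.00307) and 2.12% of all tested genes were called, against 0.416% without it. Signs turned for members that were not called: SLC25A20 with limma-voom (-0.00068), and, with each library left out, CPT1A (-0.11 to 0.59), CPT1B (-1.65 to 0.45), SLC25A20 (-0.23 to 0.26) and SLC22A5 (-0.84 to 0.082). Of 16 places in the order of per-length levels (8 in each group), 12 stayed with the longest annotated transcript as length, 5 with the longest protein-coding transcript, added after seeing the data, and 7 with no division by length. The scalings moved the median of all genes by at most 0.021. With 13 to 67 counts for CPT1B, counting error limits what can be seen of it. The cause of these changes was not tested.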
